A study of Mus musculus with 46 samples.

Results

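LINE-1 loci of the mouse L1Md subfamilies were followed in total RNA of B16F10 cells with and without a guide against Arid1a. The deposited repeat table lists 5147736 repeat copies of the mouse genome one by one, and 126672 of them belong to the L1 subfamilies whose names begin with L1Md_. The loci described here are the 4887 L1Md copies (3.86%) whose log2 value averaged at least 1 over the 4 total RNA libraries. They were thus chosen by their log2 values in these libraries, and their levels are given only as a description. The rule used the mean of all 4 libraries and not the difference between the guides. Of the other repeat copies, 35353 older L1, 17681 ERVK (endogenous retrovirus K) and 36599 B1 copies passed the same floor, and 232387 copies of any repeat passed it in all. Just inside the floor were 3 L1Md_F2 copies with means of 1.001, and just outside it 1 L1Md_F3 and 2 L1Md_F2 copies with a mean of 0.999.

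B16F10 is a mouse melanoma line. The total RNA groups were untreated cultures with the sgScramble control guide and untreated cultures with the sgArid1a guide, 2 libraries each. The Arid1a protein binds DNA as a member of the SWI/SNF complex, which moves nucleosomes. Whether a guide line was 1 clone or a pool, and whether the 2 libraries of a group came from separate cultures, is not given in the sources used here, so p-values measure only the spread between libraries, which may be technical. The control-gene comparison at the end uses polyA RNA of untreated cultures with the same guides, 2 libraries each, from another table. Its fit also held the Cgas and Sting double knockouts of B16F10, 2 libraries each, which makes 8 libraries. The double knockouts entered the floor on the mean and the shared estimate of the spread, but not the difference. In that table the 7 melanoma and pigment cell markers (Pmel, Mlana, Tyrp1, Dct, Tyr, Mitf, Sox10) lay between 11.4 and 17.1, Ptprc, Krt5 and Krt14 were listed at 0, Pecam1 was at most 0.090, Acta1 at most 0.70, Cd68 was 4.67 to 5.21 and Lyz2 3.49 to 3.61. Arid1a was at 10.90 and 11.08 with sgScramble, against 10.43 and 10.39 with sgArid1a there, and it was not analysed in the total RNA libraries.

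LINE-1 elements copy themselves through an RNA that is reverse transcribed at the new site. A complete mouse element carries a 5′ promoter made of repeated monomers, 2 open reading frames and a tail of adenines. ORF1 encodes an RNA-binding protein, and ORF2 an endonuclease and reverse transcriptase. In the mouse the A, Gf and T subfamilies hold the elements that still move, while the F subfamilies are older and largely silent. Most copies were cut short at the 5′ end when they were inserted. In somatic cells L1 promoters are kept silent by DNA methylation and by methylation of histone H3 at lysine 9.

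Sequence was available for L1Md copies where RefSeq places a gene start inside one, and these windows show how host transcripts begin in these elements. Of 32851 RefSeq promoter windows (GRCm38.p6, 250 bases before to 50 after a gene start), 13 windows of 11 genes overlapped one of the 4887 loci, and 10 windows lay wholly inside one. In 9 of these 10 the gene ran against the element, and all 9 starts lay within 1000 bases of the element's 5′ end. The 4 windows below belong to the member with the highest level among those that hold a window, and to 3 members that share one stretch of the element. The capitals mark the 50 bases from the gene start onward.
Gm36027: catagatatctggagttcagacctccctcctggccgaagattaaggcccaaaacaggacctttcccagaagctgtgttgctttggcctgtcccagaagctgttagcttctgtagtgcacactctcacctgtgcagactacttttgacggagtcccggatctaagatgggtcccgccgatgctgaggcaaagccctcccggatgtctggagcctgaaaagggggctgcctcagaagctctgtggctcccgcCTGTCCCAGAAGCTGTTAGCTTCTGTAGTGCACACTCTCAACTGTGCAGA
Gm29904: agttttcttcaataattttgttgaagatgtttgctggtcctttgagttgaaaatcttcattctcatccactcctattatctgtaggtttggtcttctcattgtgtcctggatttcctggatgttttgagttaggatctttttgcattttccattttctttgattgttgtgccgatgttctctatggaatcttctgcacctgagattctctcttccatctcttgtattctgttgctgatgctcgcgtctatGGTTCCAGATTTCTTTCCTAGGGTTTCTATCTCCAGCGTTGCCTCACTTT
4930519L02Rik: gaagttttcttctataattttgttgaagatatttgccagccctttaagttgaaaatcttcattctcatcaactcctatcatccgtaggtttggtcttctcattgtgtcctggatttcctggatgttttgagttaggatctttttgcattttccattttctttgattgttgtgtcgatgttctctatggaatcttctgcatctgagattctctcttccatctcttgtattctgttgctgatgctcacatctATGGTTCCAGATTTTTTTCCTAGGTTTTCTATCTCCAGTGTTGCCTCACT
Gm31630: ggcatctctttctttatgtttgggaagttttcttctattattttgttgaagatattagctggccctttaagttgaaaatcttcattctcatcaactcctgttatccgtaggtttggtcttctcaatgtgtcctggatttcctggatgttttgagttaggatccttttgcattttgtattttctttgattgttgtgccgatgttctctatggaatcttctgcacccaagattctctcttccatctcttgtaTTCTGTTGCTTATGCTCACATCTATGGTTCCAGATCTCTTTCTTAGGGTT
The Gm36027 window is at chr5:111355842-111356141 on the plus strand, inside an L1Md_F2 copy of 6017 bases on the minus strand (chr5:111350149-111356166), and the gene start lies 74 bases from the 5′ end of the copy. The Gm29904 window (chr15:61288191-61288490, plus strand), the 4930519L02Rik window (chr3:143030364-143030663, plus strand) and the Gm31630 window (chr13:92895416-92895715, plus strand) lie in 3 minus-strand L1Md_F2 copies, with starts 911, 944 and 734 bases from the 5′ end. The 4930519L02Rik and Gm29904 windows were 94.6% identical over 298 bases, and Gm29904 and Gm31630 were 92.7% identical over 275 bases. The copy that holds the Gm36027 start had log2 values of 4.58 and 4.42 with sgScramble, against 4.67 and 4.73 with sgArid1a. Both sgArid1a values were the higher ones, but the difference of 0.20 ± 0.22 (standard error) did not pass the test (limma, adjusted p = 0.92). The copies of Gm29904 (2.97, 3.25, 2.77 and 3.03 in the same order), 4930519L02Rik (1.23, 1.16, 1.29 and 1.32) and Gm31630 (1.40, 1.18, 1.24 and 1.28) were lower and did not pass either, with adjusted p = 0.898, 0.931 and 0.984. Counting stated no strand option, so a value sums reads of the element and of such an antisense transcript.

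Depth was 62.6 and 62.9 M reads with sgScramble, against 73.0 and 71.9 with sgArid1a. sgScramble replicate 1 stood apart from the other 3 libraries at these loci. The median L1Md value was 1.68 in that library, 1.45 in sgScramble replicate 2, and 1.42 and 1.50 with sgArid1a. Of the 4887 loci, 58.0% had their highest value in sgScramble replicate 1. Over all 232387 repeat loci that share was 24.8%, and the 4 library medians were 1.88, 1.86, 1.87 and 1.88. L1Md copies of at least 5000 bases stood higher in it by 0.27 on average than in the other 3 libraries, and shorter copies by 0.12. Older L1 copies of at least 5000 bases showed a like excess of 0.32, while ERVK copies of that length were lower in it by 0.18. Among L1Md copies outside genes the excess was 0.24, and among those in a gene on their own strand 0.086. L1Md loci with a mean under 2 showed an excess of 0.21, and the 159 with a mean of at least 4 showed 0.067. Those 159 averaged 5.25 and 5.23 with sgScramble, against 5.15 and 5.175 with sgArid1a. Repeat loci other than L1 that lie outside the bodies of the genes listed for polyA RNA were higher by 0.0064 in sgScramble replicate 1. What set the library apart was not tested. Counts of loci, median differences between the guides and their relation to host genes and neighbouring loci are also given without it.

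**Figure D1:**
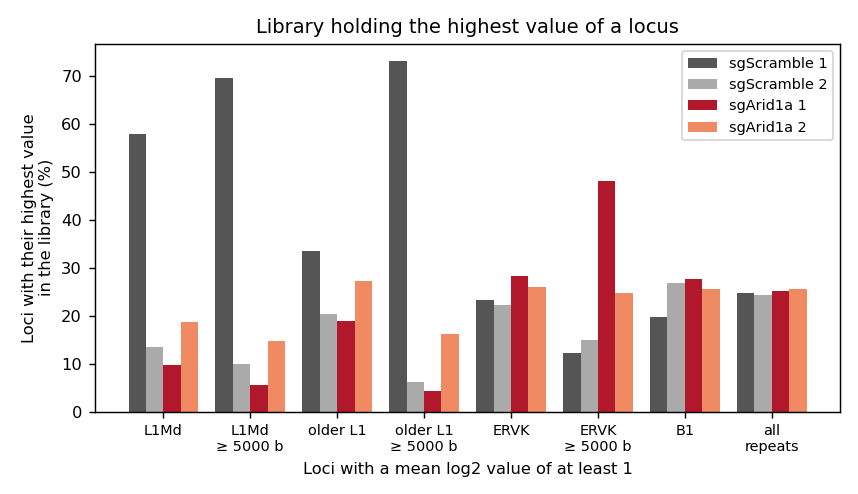
Share of loci (y axis, %) whose highest value lies in each of the 4 total RNA libraries, for L1Md, older L1, ERVK, B1 and all repeat loci at a floor of 1 on the mean log2 value (x axis), and for copies of at least 5000 bases. sgScramble replicate 1 holds the highest value of 58.0% of L1Md loci and of 73.1% of long older L1 copies, against 24.8% of all repeat loci.

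L1Md_F2 gave most of the loci. It accounted for 3277 of the 4887, followed by L1Md_F3 with 517, L1Md_T with 403, L1Md_A with 368, L1Md_F with 301 and L1Md_Gf with 21. The share of a subfamily's copies that reached the floor was highest in L1Md_F (7.5% of 4016 copies) and L1Md_F2 (5.05% of 64898), and lower in L1Md_A (2.18% of 16844), L1Md_Gf (1.94% of 1080) and L1Md_T (1.7% of 23688). Long copies passed the floor more often than short ones. Of copies of at least 5000 bases 18.5% passed, and of copies under 500 bases 0.728%, on a level that is not corrected for length. Among the long copies alone, 43.3% of L1Md_F2, 41.7% of L1Md_F and 35.1% of L1Md_F3 copies reached the floor, and 4.75% of L1Md_A, 4.92% of L1Md_T and 5.41% of L1Md_Gf copies did. The older F subfamilies (L1Md_F, L1Md_F2 and L1Md_F3) filled 83.8% of the set (4095 loci), so these loci are called L1Md here and not young.

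The share at the floor also varied with the divergence of a copy from its subfamily consensus, which the table gives per copy. Among L1Md copies of at least 5000 bases, 43 of 2494 with less than 2% divergence reached the floor (1.72%), and 858 of 1691 with 8 to 10% did (50.7%). At least 1 read in any library was seen for 62.4% of the least diverged long copies and for 97.4% of those at 8 to 10%. The most diverged copies, at 10% or more, went against the trend, with 59.4% holding a read and 33.5% at the floor. Reads from near-identical copies can map to many places, and how such reads were counted is not given in the sources used here, so the values of the least diverged copies are uncertain. The part of this in the trend was not tested. The trend also pools subfamilies of unlike divergence. Over all copies the median was 1.9% in L1Md_A, 3.5% in L1Md_T, 4.7% in L1Md_F3, 6.3% in L1Md_F2 and 11.9% in L1Md_F. L1Md_Gf had a median of 7.3%, with 5.41% of its long copies at the floor. Divergence and subfamily were not separated. The members had a median length of 5021 bases and a median divergence of 7.6%, against 741 bases and 5.2% over all L1Md copies.

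**Figure D2:**
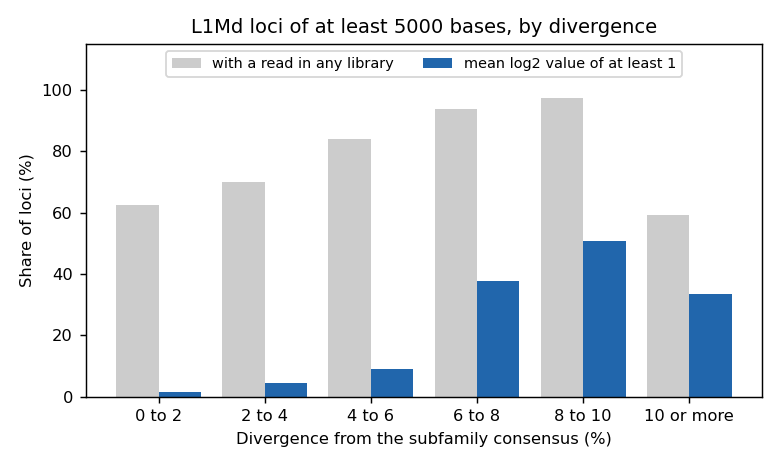
Share (y axis, %) of L1Md copies of at least 5000 bases that held a read in any of the 4 total RNA libraries (grey) or reached a mean log2 value of 1 (blue), by divergence from the subfamily consensus (x axis, %). The blue share goes from 1.72% at under 2% divergence to 50.7% at 8 to 10%.

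Most values were low. The median level of the loci was 1.51, and 1110 of the 4887 had a mean of at least 2. The 4 values of a locus follow from its few reads, and 3144 loci (64.3%) had exactly the same 4 values as another member. Below a mean of 2 this held for 80.1% of the loci, and at 2 or more for 10.6%. The 4 loci called below had means from 3.37 to 6.97.

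Most of the loci, 3021 or 61.8%, lay outside any GENCODE gene. A further 1012 (20.7%) lay in a gene on the opposite strand, 785 (16.1%) in a gene on their own strand and 69 (1.41%) in genes on both strands. Copies in a gene on their own strand had a higher median level, 1.80, than copies outside genes, 1.42. Only 167 copies (3.42%) overlapped an exon, of which 85 touched an exon of a protein-coding gene and 20 a processed pseudogene. The X chromosome carried 11.4% of all L1Md copies but 4.5% of those at the floor, and the Y chromosome 5.35% and 0.205%. Chromosome 6 carried 5.7% of all copies and 10.6% of those at the floor, the largest share of any chromosome.

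The first comparison asked whether L1Md RNA differed between sgArid1a and sgScramble cells. No subfamily passed the test. The mean level of all 4887 loci was 1.91 and 1.71 with sgScramble, against 1.68 and 1.76 with sgArid1a. The values of the 2 groups overlapped, since sgScramble replicate 2 lay between the sgArid1a libraries. The difference was -0.087 (exact two-sided permutation test, p = 0.667, where 2 against 2 libraries cannot go below 0.333), and without sgScramble replicate 1 it was 0.015. Older L1 loci differed by -0.014, ERVK loci by 0.035 and B1 loci by 0.014. Among copies of at least 5000 bases, older L1 differed by -0.14, L1Md by -0.12 and ERVK by 0.17. Without sgScramble replicate 1 the long older L1 and L1Md copies differed by 0.032 and 0.014. The role of length was not tested. The gap between L1Md and older L1 did not separate the groups either, at -0.26 and -0.40 with sgScramble, against -0.42 and -0.38 with sgArid1a (exact permutation p = 0.667). Among copies of at least 5000 bases the gap differed between the groups by 0.013 (exact permutation p = 0.667). Without sgScramble replicate 1 the mean difference was 0.015 for L1Md loci and 0.020 for older L1 loci. Fewer cells with L1 RNA and less L1 RNA per cell cannot be told apart in these bulk libraries.

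Each of the 6 subfamily means was lower with sgArid1a by 0.06 to 0.11. L1Md_F2 averaged 1.95 and 1.74 with sgScramble, against 1.72 and 1.80 with sgArid1a, a difference of -0.086 ± 0.081 (limma, adjusted p = 0.865). L1Md_A averaged 1.79 and 1.62 with sgScramble, against 1.57 and 1.64 with sgArid1a, a difference of -0.10 ± 0.080. L1Md_T averaged 1.80 and 1.66, then 1.64 and 1.70, a difference of -0.064 ± 0.068. In all 6 subfamilies the highest library was sgScramble replicate 1, and sgScramble replicate 2 lay between the sgArid1a values. The 95% interval of the difference ran from -0.31 to 0.10 for L1Md_A, from -0.29 to 0.12 for L1Md_F2 and from -0.24 to 0.11 for L1Md_T. None of the 6 reached an adjusted p under 0.05 with limma, nor an unadjusted p under 0.05, and 0 of 1002 repeat subfamilies (0%) passed. Without sgScramble replicate 1 the differences of L1Md_F2, L1Md_F3, L1Md_Gf and L1Md_T turned to 0.020, 0.025, 0.016 and 0.0078.

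**Figure D3:**
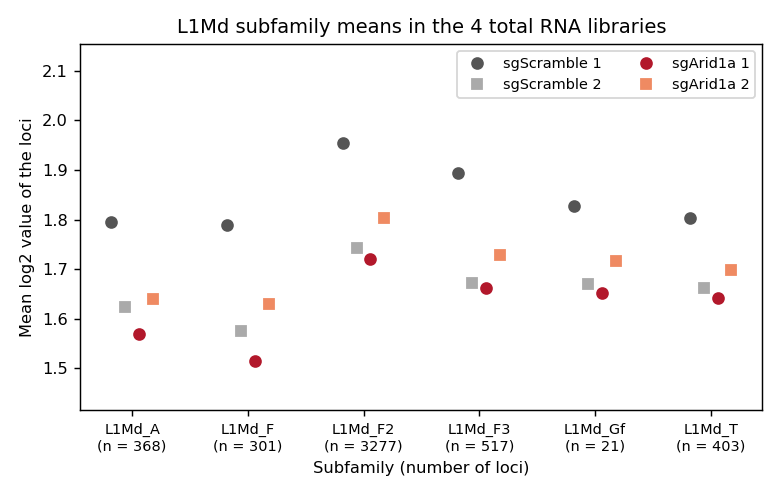
Mean log2 value of the loci of each L1Md subfamily (y axis) in the 4 total RNA libraries, by subfamily with its number of loci (x axis). The darkest circles, sgScramble replicate 1, lie above the other 3 libraries in all 6 subfamilies, and those 3 lie close together.

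Copy by copy, 4 of the 4887 loci passed the test, 1 higher and 3 lower with sgArid1a, when 0.103% of all repeat loci tested passed it in either direction (limma, adjusted p under 0.05 over 232387 loci, of which 0.0237% were higher and 0.0792% lower). The share of L1Md loci called was 0.0818%, against 0.0877% of older L1, 0.119% of ERVK and 0.0519% of B1 loci. In the authors' deposited table, 3 of the 4887 loci and 0.0538% of all repeat loci had an adjusted p under 0.05. Counts of loci whose groups did not overlap leaned to the lower side, with 392 L1Md loci (8.02%) higher in both sgArid1a libraries and 1131 (23.1%) lower in both, against 19.2% and 16.6% of all repeat loci. The median difference was -0.086 over the L1Md loci and 0.0070 over all repeat loci. It was 0.026 for L1Md copies under 500 bases and -0.12 for those of at least 5000 bases, the copies in which sgScramble replicate 1 was highest. Set against sgScramble replicate 2 alone, a comparison chosen after seeing the data, 1615 L1Md loci (33.0%) were higher in both sgArid1a libraries and 1443 (29.5%) lower in both, against 35.5% and 31.7% of all repeat loci. The median difference was then 0.031 over the L1Md loci, 0.018 over copies under 500 bases and 0.033 over those of at least 5000 bases. Without sgScramble replicate 1, 6 L1Md loci passed, 1 higher and 5 lower, which is 0.123% of them against 0.134% of all repeat loci. Without sgScramble replicate 2, 72 passed, 71 of them lower, which is 1.47% against 0.356% of all repeat loci. Without either sgArid1a library no repeat locus of any kind passed with limma, so a call lost in these fits is not particular to an L1Md locus. In each of these fits the lone library is assumed to vary like those of the other group.

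**Figure D4:**
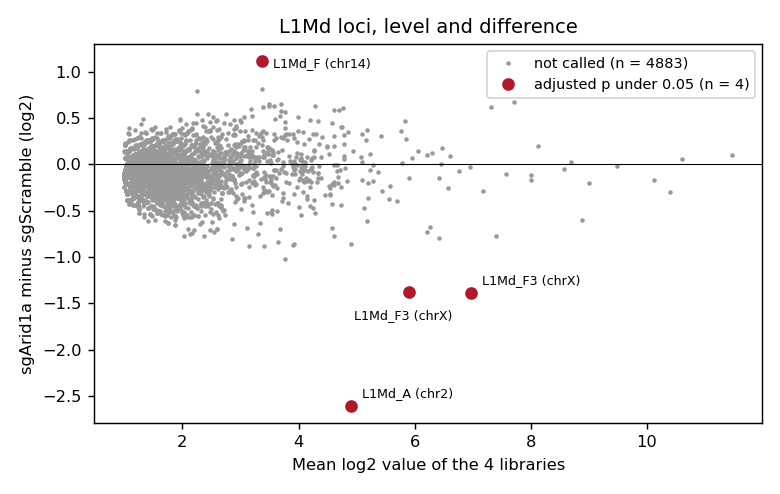
Difference between sgArid1a and sgScramble (y axis, log2) against the mean log2 value (x axis) of the 4887 L1Md loci, 1 point per locus. The 4 loci with an adjusted p under 0.05 are red: L1Md_A on chromosome 2 at -2.60, a pair of L1Md_F3 loci on the X chromosome at -1.39 and -1.38, and L1Md_F on chromosome 14 at 1.12.

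The largest difference among the called loci was at an L1Md_A copy on chromosome 2 (chr2:78333308-78338520, plus strand). This copy of 5212 bases differed from the A consensus by a fraction of 0.016, the smallest divergence among the 4 called loci. It had 6.26 and 6.16 with sgScramble, against 3.95 and 3.26 with sgArid1a, and the groups lay far apart. The locus fell by 2.60 ± 0.24 (limma, adjusted p = 2.87e-06), and the authors' deposited table gives a log2 fold change of -3.74. It lay outside genes, 31.1 kb from the nearest one, the long noncoding RNA Gm14461. The 4 other repeat copies at the floor within 10 kb were also lower in both sgArid1a libraries, and none passed the test on its own. One of them, an older L1_Mur1 copy, had 3.04 and 2.56 with sgScramble, against 1.94 and 1.91 with sgArid1a (adjusted p = 0.0889). The call on the L1Md_A copy was lost without either sgArid1a library, where no repeat locus passed. Its difference lay between -2.95 and -2.26 under the settings run for it.

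The other lower loci were a pair of short L1Md_F3 pieces side by side on the X chromosome, inside the last exon of Maoa, which encodes monoamine oxidase A. The plus-strand piece of 265 bases (chrX:16687132-16687397) had 7.61 and 7.73 with sgScramble, against 6.32 and 6.24 with sgArid1a, and fell by 1.39 ± 0.20 (limma, adjusted p = 0.00117). The minus-strand piece of 249 bases (chrX:16686882-16687131) had 6.59 and 6.58 with sgScramble, against 5.09 and 5.32 with sgArid1a, and fell by 1.38 ± 0.22 (limma, adjusted p = 0.00288). In both pieces every sgArid1a value lay under every sgScramble value. Since both lie in an exon of the gene, their values cannot be told apart from reads of the Maoa transcript. In polyA RNA of untreated cultures Maoa itself (NM_173740) was at 10.77 and 10.73 with sgScramble, against 10.30 and 10.47 with sgArid1a, and fell by 0.36 ± 0.093 (limma, adjusted p = 0.0244). Both pieces lost their call without either sgArid1a library, where no repeat locus passed. The minus-strand piece had a limma adjusted p of 0.0716 when the floor for testing was 0.5.

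The 1 locus that rose was an L1Md_F piece of 792 bases on chromosome 14 (chr14:15025397-15026189, minus strand), in an intron of the long noncoding RNA Gm31517. It had 2.70 and 2.92 with sgScramble, against 3.72 and 4.13 with sgArid1a, and rose by 1.12 ± 0.21 (limma, adjusted p = 0.0234). The neighbourhood was higher with it. All 18 other repeat copies at the floor within 10 kb were higher in both sgArid1a libraries, and 5 of them passed the test. An ETnERV-int copy of 6365 bases, the inner part of an endogenous retrovirus, had 7.50 and 7.71 with sgScramble, against 8.65 and 8.89 with sgArid1a (rise of 1.16 ± 0.19, limma adjusted p = 0.00337). The authors' deposited table gives the L1Md_F piece a log2 fold change of 2.70 with an adjusted p of 0.9996. Its adjusted p was 0.0785 without sgScramble replicate 1, 0.842 and 0.831 without either sgArid1a library, and 0.271 when the floor for testing was 0.5.

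The next loci on the higher side in order of p were not called. An L1Md_A piece of 1220 bases on chromosome 10 (chr10:94176562-94177782, minus strand), in the nuclear receptor gene Nr2c1 against its strand, had 1.79 and 1.91 with sgScramble, against 2.66 and 2.63 with sgArid1a (difference 0.79 ± 0.18, limma adjusted p = 0.109). This locus passed with libraries centred on their median (adjusted p = 0.0212) and with a replicate block (adjusted p = 0.0272). An L1Md_T piece of 1079 bases on the X chromosome (chrX:4898288-4899367, minus strand), outside genes, had 7.32 and 7.43 with sgScramble, against 8.27 and 7.83 with sgArid1a (difference 0.67 ± 0.20, adjusted p = 0.433). In both loci the groups did not overlap, but they were picked by their p. Beside the L1Md_T piece, an LSU-rRNA_Hsa copy (ribosomal RNA class) began at the next base. It had 9.70 and 9.66 with sgScramble, against 10.02 and 9.55 with sgArid1a. An adjoining L1Md_F2 piece had a difference of -0.47 ± 0.23 (limma, adjusted p = 0.77). Whether ribosomal RNA reads were counted at the L1Md_T piece was not tested.

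**Figure D5:**
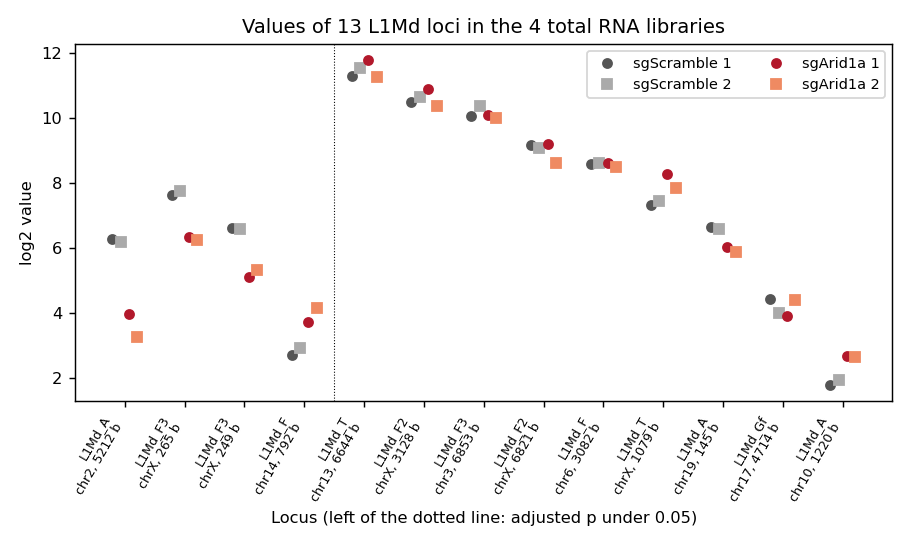
Log2 values (y axis) of 13 L1Md loci in the 4 total RNA libraries, with the 4 called loci left of the dotted line and the highest and next-ranked loci right of it (x axis: subfamily, chromosome and length in bases). The called loci show separate groups, and the highest locus, L1Md_T on chromosome 13, holds all 4 values between 11.26 and 11.77.

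Several of the loci with the highest levels held pieces of other genes. Of the 10 highest, 5 overlapped a processed or unprocessed pseudogene, and 4 contained a whole annotated gene. A processed pseudogene is a copy of a spliced mRNA that L1 enzymes put back into the genome, and the counts do not separate the kinds. Of the 50 highest 11 overlapped a pseudogene of either kind, of the 100 highest also 11, and of all 4887 loci 84. The highest of all was an L1Md_T copy of 6644 bases on chromosome 13 (chr13:9832021-9838665, minus strand), with 11.29 and 11.53 with sgScramble, against 11.77 and 11.26 with sgArid1a (difference 0.10 ± 0.13, limma adjusted p = 0.931). It contains Gm24187, a GENCODE gene of 57 bases annotated as a miRNA, which 3 other genes of that class match at 98.2% identity. Which RNA the reads at this locus came from was not tested. The whole gene is shown because it lies within the highest locus, at chr13:9834469-9834525 on the minus strand.
Gm24187: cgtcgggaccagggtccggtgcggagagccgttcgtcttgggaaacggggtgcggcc
Second among copies of at least 5000 bases was an L1Md_F3 copy on chromosome 3 (chr3:59763928-59770781, plus strand) at 10.06 and 10.35 with sgScramble, against 10.08 and 9.99 with sgArid1a (adjusted p = 0.882). It contains Gm5539, a processed pseudogene of 966 bases that was 98.6% identical to a transcript of Morf4l1, a chromatin protein gene. An L1Md_F2 copy on the X chromosome (chrX:70651759-70658580, minus strand) had 9.15 and 9.07 with sgScramble, against 9.19 and 8.62 with sgArid1a (adjusted p = 0.898). It contains Rplp1-ps1, 91.9% identical over 345 bases to Rplp1, which encodes a ribosomal stalk protein. The first 60 coding bases show the likeness, with capitals at the 8 positions that differ (Rplp1-ps1 at chrX:70653491-70653550, minus strand).
Rplp1-ps1: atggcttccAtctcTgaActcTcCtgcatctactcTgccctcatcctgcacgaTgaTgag
Rplp1: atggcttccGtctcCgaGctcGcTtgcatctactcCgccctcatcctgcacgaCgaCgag
Other high loci held whole pseudogenes as well. An L1Md_F2 piece on the X chromosome at a mean of 9.48 contains Gm14719 (97.7% identical to Ppdpf), an L1Md_F2 copy on chromosome 6 at 6.76 contains Gm4045 (97.7% identical to Atp5l, a subunit of ATP synthase), and an L1Md_F2 copy on chromosome 3 at 6.42 contains Gm8599 (92.8% identical to Rps18, a protein of the small ribosomal subunit). An L1Md_A copy on chromosome 3 at 5.78 contains Gm5845, 98.2% identical to Rpl7a, a protein of the large ribosomal subunit. In polyA RNA of untreated cultures the parent genes had log2 values, not corrected for length, from 8.28 for Atp5l to 13.88 for Rplp1 in sgScramble replicate 1. Whether reads of the parent mRNAs were counted at these L1Md loci was not tested.

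The highest loci of 3 subfamilies lay outside genes or ran against one. The highest L1Md_F2 locus, a piece of 3128 bases on the X chromosome (chrX:33413553-33416681, minus strand) 9.62 kb from the nearest gene, had 10.49 and 10.64 with sgScramble, against 10.90 and 10.36 with sgArid1a (adjusted p = 0.959). The highest L1Md_F locus (chr6:90228863-90231945, plus strand) overlaps the pseudogene Gm20426 on the other strand and had 8.57 and 8.61 with sgScramble, against 8.60 and 8.48 with sgArid1a (adjusted p = 0.979). The highest L1Md_Gf locus, 4714 bases in Btbd9 against its strand (chr17:30500005-30504719, plus strand), had 4.40 and 3.99 with sgScramble, against 3.89 and 4.37 with sgArid1a (adjusted p = 0.979). In these 3 loci the groups overlapped.

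The highest L1Md_A locus was a piece of 145 bases (chr19:15904565-15904710, minus strand) in an exon of Psat1, which encodes an enzyme of serine synthesis. It had 6.64 and 6.57 with sgScramble, against 6.01 and 5.85 with sgArid1a, a difference of -0.67 ± 0.21 that did not pass the test (limma, adjusted p = 0.487). Psat1 itself (NM_177420) was at 12.84 and 12.56 in untreated polyA cultures with sgScramble, against 11.95 and 11.87 with sgArid1a, and fell by 0.79 ± 0.11 (limma, adjusted p = 0.000642). Per kilobase of locus, on the log2 scale, this piece had the highest level of the 13 named loci, 9.05, with the L1Md_F2 piece on the X chromosome at 8.95, the plus-strand piece in Maoa at 8.89 and the L1Md_T copy on chromosome 13 at 8.73. The called L1Md_A copy on chromosome 2 was at 2.53 per kilobase.

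L1Md loci inside genes were set beside their host genes. Of the 4887 loci, 1113 lay in exactly 1 protein-coding gene that was tested in polyA RNA of untreated cultures. Of all 11604 genes tested there, 5.84% rose and 5.98% fell with sgArid1a. In 28 host genes that rose there were 47 L1Md loci, with library medians of 2.05 and 1.91 with sgScramble, against 2.15 and 2.32 with sgArid1a, and 57.4% of these loci had a difference above 0. In 70 host genes that fell there were 128 loci, with medians of 1.96 and 1.79 with sgScramble, against 1.74 and 1.72 with sgArid1a, and 33.6% were above 0. In 626 host genes that were not called, 938 loci had a median difference of 0.0035 and 50.9% were above 0. Without sgScramble replicate 1 the median differences were 0.11 in hosts that rose, -0.053 in hosts that fell and 0.031 in the others, and 57.4%, 43.0% and 55.1% of the loci were above 0. Across the 1113 loci the difference of a locus and that of its host had Pearson's r = 0.272, and r = 0.382 over the 218 loci with a mean of at least 3 (0.173 and 0.241 without sgScramble replicate 1). Across 1192 loci with at least 3 other repeat copies at the floor within 10 kb, the difference of an L1Md locus and the mean difference of those neighbours had r = 0.424. It was r = 0.589 over the 272 of them with a mean of at least 3 (0.293 and 0.478 without sgScramble replicate 1). The neighbours were read from the same 4 libraries, loci in one gene share a host, and loci are not independent replicates, so these are descriptions only.

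A last comparison followed genes known to hold L1 in check, or to help it, in polyA RNA of untreated cultures. Of 45 listed genes 43 were in the table and 38 were expressed at the floor of 4. With sgArid1a 5 of the 38 rose and 2 fell, when 5.84% of all 11604 genes tested rose and 5.98% fell (limma, adjusted p under 0.05). The median difference was 0.11 over the list and 0.011 over all genes. These counts depend on the fit, and with only the 4 libraries of the comparison 2 genes passed, 1 in each direction. They ranged from 1 to 11 when a library was left out.

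The DNA methylation group had 1 gene higher and 1 lower out of 8. Uhrf1, which recruits Dnmt1 to newly copied DNA, was at 11.78 and 11.94 with sgScramble, against 12.51 and 12.44 with sgArid1a, and rose by 0.61 ± 0.093 (limma, adjusted p = 0.00104). Tet2, which oxidises methylated cytosine, was at 8.49 and 8.41 with sgScramble, against 8.06 and 7.80 with sgArid1a, and fell by 0.52 ± 0.12 (limma, adjusted p = 0.0129). Its call was lost with only the 4 libraries of the comparison (adjusted p = 0.0556) and without sgArid1a replicate 2 (adjusted p = 0.165). Dnmt1, the enzyme that copies methylation onto new DNA, was at 11.88 and 12.09 with sgScramble, against 12.25 and 12.17 with sgArid1a and did not pass (adjusted p = 0.171). None of the 11 tested genes of the HUSH complex and of histone H3 lysine 9 methylation was called with limma, and 3 had an unadjusted p under 0.05. Trim28 and Ehmt2 had the highest levels among them. Trim28, a corepressor of KRAB zinc finger proteins, was at 12.07 and 12.01 with sgScramble, against 12.28 and 12.17 with sgArid1a (difference 0.18 ± 0.087, adjusted p = 0.199). Ehmt2, which methylates histone H3 at lysine 9, was at 11.11 and 11.55 with sgScramble, against 11.55 and 11.33 with sgArid1a (difference 0.10 ± 0.13, adjusted p = 0.661).

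Of 12 tested genes listed under restriction of nucleic acid and retrotransposition, 3 rose and 1 fell. Samhd1, which breaks down deoxynucleotides, was at 9.19 and 9.26 with sgScramble, against 9.61 and 9.47 with sgArid1a, and rose by 0.32 ± 0.094 (limma, adjusted p = 0.0447). Adar, which edits adenosine in double-stranded RNA, was at 9.37 and 9.50 with sgScramble, against 9.79 and 9.78 with sgArid1a, and rose by 0.35 ± 0.095 (limma, adjusted p = 0.0294). Rnaseh2b, a subunit of the RNase that cuts RNA in RNA-DNA hybrids, was at 8.96 and 8.64 with sgScramble, against 9.13 and 9.36 with sgArid1a, and rose by 0.45 ± 0.13 (limma, adjusted p = 0.0363). Rb1, the retinoblastoma protein gene, was at 8.51 and 8.44 with sgScramble, against 7.98 and 7.97 with sgArid1a, and fell by 0.50 ± 0.10 (limma, adjusted p = 0.00794). In all 4 genes the groups did not overlap, which is likely in genes picked by this test and adds no support. None of the 3 rises passed with a replicate block (adjusted p = 0.119 for Samhd1, 0.0952 for Adar and 0.116 for Rnaseh2b) or with only the 4 libraries of the comparison (0.150, 0.107 and 0.110), and each was lost without either sgArid1a library. Samhd1 and Adar were also lost without sgScramble replicate 1, Rnaseh2b without sgScramble replicate 2, and Samhd1 when the same libraries were read from the anti-IFNAR table (adjusted p = 0.0620). Rb1 was lost without either sgArid1a library (adjusted p = 0.0626 and 0.0758). Of 5 tested genes listed under RNA decay, only Safb, a nuclear RNA-binding protein gene, was called. The heading is that of the list and does not state a role of Safb in decay. Safb was at 9.66 and 10.06 with sgScramble, against 10.37 and 10.25 with sgArid1a, and rose by 0.45 ± 0.13 (limma, adjusted p = 0.0439). Its adjusted p was 0.108 with a replicate block, 0.102 with only the 4 libraries, 0.0600 in the anti-IFNAR table and 0.209 without sgScramble replicate 1, where the difference was 0.25, and the call was also lost without either sgArid1a library. Neither of the 2 tested transcription factor genes was called or had an unadjusted p under 0.05.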

How the data were processed

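The authors aligned reads to GRCm38/mm10 with STAR 2.5.3a and used HOMER and DESeq2 for the total RNA repeat table, per the submitters' processing notes and the file headers. Per the file headers, repeats were counted copy by copy, with no strand option stated. The kit in the labels is a stranded mRNA kit although these 4 libraries are labelled total RNA, and columns headed sgNT were matched to the labelled sgScramble libraries. The gene table was made with HOMER and edgeR, per the file headers. The deposited values of both are normalized log2 values. Among the named loci, differences of the repeat values were mostly smaller than the authors' log2 fold changes. They were 0.79 against 4.25 at the L1Md_A piece on chromosome 10, and 1.12 against 2.70 at the L1Md_F piece on chromosome 14. Only the L1Md_F2 locus chrX:70651759-70658580 went the other way (-0.20 against -0.19). These measures are therefore not the same. The authors' log2 fold changes and adjusted p-values from the deposited table are named as theirs. Divergence is a fraction in the deposited table. Columns of 8 other samples were not used.

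The members, lists and tests were chosen with earlier results of these data known. Repeat loci whose mean log2 value reached 1, and genes whose mean reached 4 (8 libraries, 8.7 to 22.8 M reads), were tested with limma 3.58.1 (limma-trend, R 4.3.3) and Benjamini-Hochberg adjustment over all loci, all 1002 subfamilies with at least 5 loci, or all genes, and called at an adjusted p under 0.05. Errors after ± are standard errors. GENCODE vM21 overlaps were found with bedtools 2.31.1, and gene likeness with blastn 2.17.0. Named loci are the highest of each subfamily, the 3 highest of at least 5000 bases, the called loci, and the 3 smallest p in a direction with under 3 calls. Named genes are the called ones and the 3 highest not called. The fits were tested on simulated data. At single repeat loci 8.96% of planted log2 changes of 0.5 were recovered, 80.6% of those of 1 and 100% of those of 2, with 19 false calls. Most changes of 0.5 at a single locus would thus be missed. For genes the shares were 70.1%, 100% and 100%, with 14 false calls, and for subfamilies 100%, 98.5% and 100%, with 9. Each feature was drawn on its own, so a deviation that many loci share in a library was not simulated. Same-numbered libraries did not deviate together (r = -0.060 over repeat loci and -0.38 over genes), so the numbers were not used as pairs.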

Additional observations from a re-analysis of the deposited data

How the results depend on the processing

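The 4 calls among L1Md loci became 11 with a replicate block, 26 with a crossed replicate block (chosen after seeing the data), 16 with libraries centred on their median, 2 with loci of a mean of at least 0.5 tested, and 2 among loci outside gene bodies, and ranged from 0 to 72 when a library was left out. Under the same crossed block 9 control genes passed. No share of all repeat loci or of all genes was taken under the crossed block. The 26 loci and the 9 genes therefore have no background to be compared with. In the main fit 0.0818% of L1Md loci and 0.103% of all repeat loci tested passed. Both shares were higher with a replicate block (0.225% and 0.206%) and with centred libraries (0.327% and 0.261%). Both were lower with the floor of 0.5 (0.0409% and 0.0173%). The L1Md share was thus under that of all repeat loci in the main fit and above it under each of these settings. Whether L1Md loci changed by more than other loci was not tested. Outside gene bodies the L1Md share was lower (0.0584%) and that of all repeat loci higher (0.114%). The 7 control genes became 3 with a replicate block and 2 with only the 4 libraries of the comparison, and ranged from 1 to 11 when a library was left out. The numbers pair no libraries by the labels, so neither block count shows a weaker or stronger effect. Leaving out a library turned the sign of values that were not called: from -0.21 to 0.33 at the L1Md_F2 locus chrX:33413553-33416681, from -0.31 to 0.18 at L1Md_Gf, from -0.16 to 0.36 at the L1Md_T locus on chromosome 13, from -0.11 to 0.012 at the L1Md_F locus on chromosome 6, from -0.49 to 0.088 at chrX:70651759-70658580, and from -0.11 to 0.32 for Ehmt2. Subfamily differences ranged from -0.19 to 0.020 for L1Md_F2, from -0.20 to 0.025 for L1Md_F3, from -0.14 to 0.016 for L1Md_Gf and from -0.13 to 0.0078 for L1Md_T. The causes were not tested. No subfamily was called under any of the 12 alternatives run, and without sgScramble replicate 2 an unadjusted p under 0.05 was seen for 2 of the 6. Few reads per locus limit all of this: 64.3% of the loci share all 4 values with another.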
